A study of Mus musculus with 6 samples.

Results

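Interferon-induced genes are the genes that cells switch on after type I, type II or type III interferon binds its receptor. A list of 39 such mouse genes was followed in single-cell RNA-seq of leukaemic bone marrow, chosen by symbol from the 31053 features of the MLL-AF9 (MA9) matrices and the 32285 features of the Hoxa9-Meis1 (HM) matrices. All 39 symbols matched a feature in the MA9 matrices and 38 in the HM matrices, so that Mx1, a dynamin-like antiviral GTPase, was compared in the MA9 libraries alone. The study took bone marrow of mice with acute myeloid leukaemia, made per the labels by bringing the oncogene into mouse embryonic stem cells, and varied the phosphatase SHP-1, encoded by Ptpn6, and chemotherapy. There were 6 libraries, 1 for each group. HM chemo came from Hoxa9-Meis1 leukaemia given cytarabine and doxorubicin (Arac+Dox) and HM PBS from the same leukaemia given phosphate-buffered saline, both titled Shp-1 f/f. The MA9 Δ/Δ chemo library came from MLL-AF9 leukaemia with deleted Shp-1 given the same 2 drugs, and MA9 f/f chemo from MLL-AF9 leukaemia with the floxed, undeleted allele given them. MA9 Δ/Δ PBS and MA9 f/f PBS were the counterparts given saline. The labels name neither the Cre that deleted Shp-1, nor the number or age of the mice, nor dose or time, and leukaemic cells were not told apart from cells of the host. With 1 library a group, differences between libraries were not tested, and every ratio between them below is a description whose interval covers counting error only.

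Interferon receptors act through JAK kinases on transcription factors, among them STAT2 and its partner IRF9, which act on interferon-stimulated response elements, while interferon gamma also acts through gamma-activated sites. The induced proteins sense viral nucleic acid, trim or sequester viral RNA, conjugate the ubiquitin-like protein ISG15 and restrict budding or entry. In bone marrow, interferon acts on stem cells and on maturing neutrophils and monocytes, and mouse neutrophils take up a part of this programme as they mature.

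The sequence before the transcription start is shown for 7 members on which the results turn: Isg15, Ifit1, Ifit3 and Rsad2 for their large differences between the leukaemias, Ifit3b as a near copy of Ifit3, Irf1 as a carrier of the other element, and Slfn4 as a member with a large difference and no match. Each is the 250 bases before the start, 5′ to 3′ on the gene's own strand, from RefSeq on GRCm38.p6. Capitals mark GAAA, any 2 bases and GAAA again, the core of the interferon-stimulated response element, searched on both strands and read as TTTC, any 2 bases and TTTC where the match is on the other strand. In Irf1 they mark TTCNNNGAA, the core of the gamma-activated site.
Isg15: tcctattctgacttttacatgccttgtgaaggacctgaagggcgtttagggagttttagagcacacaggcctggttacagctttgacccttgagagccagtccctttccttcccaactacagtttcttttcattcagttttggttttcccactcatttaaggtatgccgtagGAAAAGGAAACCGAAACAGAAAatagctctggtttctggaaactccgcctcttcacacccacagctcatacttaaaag
Ifit1: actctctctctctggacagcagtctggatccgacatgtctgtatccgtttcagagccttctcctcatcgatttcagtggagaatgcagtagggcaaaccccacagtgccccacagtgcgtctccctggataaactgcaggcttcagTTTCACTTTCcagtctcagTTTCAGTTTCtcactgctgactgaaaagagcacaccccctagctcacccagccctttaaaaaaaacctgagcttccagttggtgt
Ifit3: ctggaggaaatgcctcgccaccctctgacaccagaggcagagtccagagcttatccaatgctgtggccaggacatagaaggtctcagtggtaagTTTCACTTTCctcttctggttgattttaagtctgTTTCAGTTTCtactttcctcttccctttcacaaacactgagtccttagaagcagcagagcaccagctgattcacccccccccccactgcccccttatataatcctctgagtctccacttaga
Ifit3b: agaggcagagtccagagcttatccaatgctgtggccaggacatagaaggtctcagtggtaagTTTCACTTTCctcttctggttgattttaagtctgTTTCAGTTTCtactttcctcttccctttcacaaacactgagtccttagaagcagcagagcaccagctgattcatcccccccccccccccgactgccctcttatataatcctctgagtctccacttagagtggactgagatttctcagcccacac
Rsad2: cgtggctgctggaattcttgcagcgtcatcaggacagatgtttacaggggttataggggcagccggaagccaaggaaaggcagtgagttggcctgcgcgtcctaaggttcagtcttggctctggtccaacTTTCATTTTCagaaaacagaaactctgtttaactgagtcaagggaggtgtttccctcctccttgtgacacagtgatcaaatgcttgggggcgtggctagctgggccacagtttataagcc
Irf1: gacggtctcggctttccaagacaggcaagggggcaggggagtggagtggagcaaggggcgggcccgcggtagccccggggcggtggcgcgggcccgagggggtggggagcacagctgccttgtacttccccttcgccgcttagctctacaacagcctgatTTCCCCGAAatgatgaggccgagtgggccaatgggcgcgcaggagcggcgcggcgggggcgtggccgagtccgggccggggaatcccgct
Slfn4: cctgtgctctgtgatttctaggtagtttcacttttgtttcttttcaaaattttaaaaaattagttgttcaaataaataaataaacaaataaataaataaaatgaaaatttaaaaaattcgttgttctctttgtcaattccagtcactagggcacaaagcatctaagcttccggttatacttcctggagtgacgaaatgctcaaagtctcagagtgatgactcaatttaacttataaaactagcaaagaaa
These windows lie at chr4:156200819-156201068, minus strand for Isg15, chr19:34640639-34640888, plus strand for Ifit1, chr19:34583279-34583528, plus strand for Ifit3 and chr19:34607707-34607956, plus strand for Ifit3b. The others lie at chr12:26456453-26456702, minus strand for Rsad2, chr11:53769764-53770013, plus strand for Irf1 and chr11:83174936-83175185, plus strand for Slfn4. Each window ends at the base before the RefSeq transcription start. For Ifit1 the GENCODE gene starts inside the window, at base 34640871 of chromosome 19, and for the other 6 it starts after it.

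Isg15 held 3 overlapping matches to this core, Ifit1, Ifit3 and Ifit3b held 2 each, Rsad2 held 1 and Slfn4 none. A promoter window, 250 bases before to 50 after the start, was on hand for 31 of the 39 members. At least 1 such core was found in 19 of these 31 members (61.3%), among them Stat2, Oas1a, Oas3, Bst2, Ifitm3 and the 3 Gbp genes. Counted by window, 21 of 38 member windows (55.3%) held it, against 3.44% of all 32851 windows. TTCNNNGAA was found in 8 members, and in 8.30% of all windows. A match says only that these letters are there. The 6 Ifit genes lie side by side at chr19:34550694-34650009 on mm10. The upstream sequence of Ifit3 and Ifit3b was identical at 216 of 218 aligned bases (99.1%), and the windows of Ifit1 and Ifit1bl2 overlap by 245 bases on opposite strands.

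The 6 libraries kept 2755 to 9750 cells with at least 500 genes and at most 10% mitochondrial UMIs (unique molecular identifiers, each a counted RNA molecule), with 15111411 to 103581646 UMIs in all. The HM PBS library stands apart, because 74.7% of its barcodes were over the mitochondrial limit and 22.1% were kept, against 87.2% to 94.8% kept in the other 5. Between 21 and 34 barcodes were shared by any 2 MA9 libraries, 37 by the HM libraries and the models' barcodes could not be matched, since they are written with 17 letters in HM and 16 in MA9. The feature sets differ too, and the MA9 matrix headers name Cell Ranger while the HM headers name no software, so the leukaemia model and any difference in processing cannot be told apart in HM over MA9 ratios. Over the features that both matrices hold, 36 members were again 2-fold higher in HM PBS than in f/f PBS. Ptpn6 stood at 113 CPM (UMIs scaled to a common total for each library or class) in HM chemo, 135 in HM PBS, 43.6 in MA9 Δ/Δ chemo, 57.7 in MA9 f/f chemo, 172 in MA9 Δ/Δ PBS and 186 in MA9 f/f PBS. In the MA9 libraries it thus differed by the treatment label and not by the genotype label. A 3′ tag can lie outside the deleted exons, which the labels do not name. That bears only on the Δ/Δ against f/f levels. Why Ptpn6 was lower in both MA9 libraries labelled chemo was not tested. Whether the genotype and treatment labels match the MA9 libraries was thus not settled. Below, "Δ/Δ", "f/f", "chemo" and "PBS" mean the libraries so labelled. Neutrophil-like cells, gated on 13 markers such as Camp, Ltf, Retnlg and Cxcr2, made up 47.5% of HM chemo, 84.3% of HM PBS, 5.26% of Δ/Δ chemo, 42.3% of f/f chemo, 5.47% of Δ/Δ PBS and 45.7% of f/f PBS. No gate used a member of the list.

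The interferon-induced genes were far more abundant in HM PBS than in any MA9 library. Summed over the 38 genes that all matrices list, they took 4356 CPM in HM chemo and 10128 CPM in HM PBS, against 968 CPM in Δ/Δ chemo, 862 CPM in f/f chemo, 1044 CPM in Δ/Δ PBS and 673 CPM in f/f PBS. Members at 20 CPM or more numbered 23 in HM chemo and 36 in HM PBS, against 10, 8, 15 and 8 in Δ/Δ chemo, f/f chemo, Δ/Δ PBS and f/f PBS. The MA9 libraries lie close together on this scale and both HM libraries lie above them. Of the 37 members at 20 CPM or more in some library, 27 were higher in both HM libraries than in all 4 MA9 libraries, a pattern that 11.1% of all genes at that level showed. For 17 of the 37 the lower HM library was at least 2-fold above the highest MA9 library, against 3.58% of all genes. None of the 37 was lower in both HM libraries than in all 4 MA9 libraries, a pattern that 54.0% of all genes showed.

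**Figure D1:**
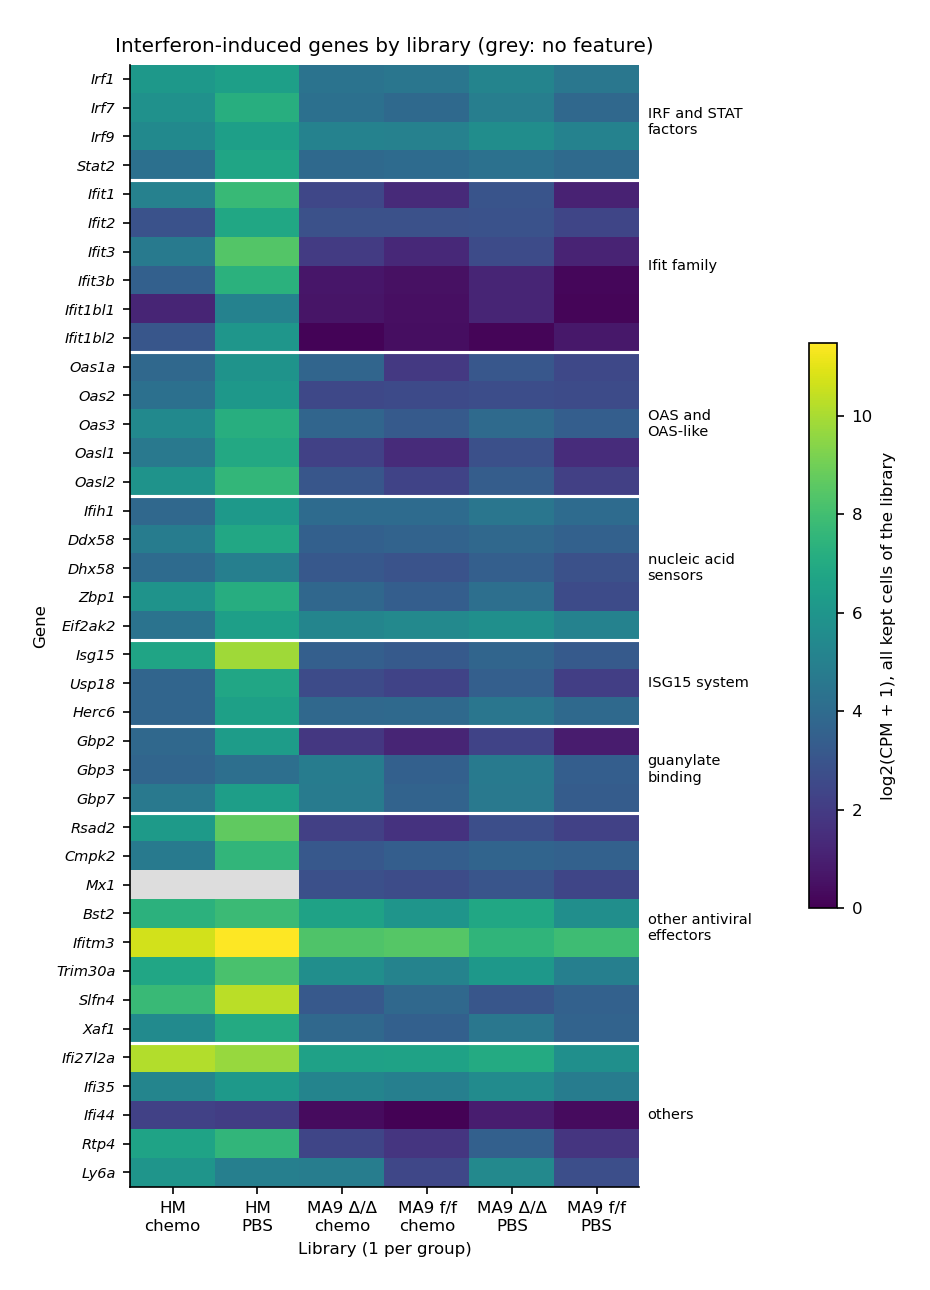
Level of each interferon-induced gene (rows, grouped by role) in each library (columns, 1 library per group), as colour on a log2(CPM + 1) scale over all kept cells, with grey where the matrix has no such feature. The HM PBS column is the brightest for most rows, while Ifi27l2a and Ly6a are brighter in HM chemo and Gbp3 is brighter in the 2 Δ/Δ columns.

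HM PBS against MA9 f/f PBS compares the 2 leukaemia models without drug. All 36 members that reached 20 CPM in HM PBS or in f/f PBS were at least 2-fold higher in HM PBS, against 8.92% of the 5987 genes compared, and none was 2-fold lower, against 30.7%. Their median log2 ratio was 3.82, against -0.62 over all genes compared. Median-of-ratios scaling over all genes shifted this pair by -0.449 on the log2 scale, and the same count of 36 was 2-fold higher under it. Without the mitochondrial limit, which keeps the barcodes that HM PBS lost, 37 were 2-fold higher and the median was 3.45. Ifi44 and Gbp3 stayed under 20 CPM in both libraries.

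The Ifit family, whose proteins bind viral RNA that lacks the host cap methylation, had the highest median of the 8 roles, at a log2 ratio of 7.84. Ifit3 stood at 24.6 CPM in HM chemo and 333 CPM in HM PBS, and at 3.0, 1.5, 5.07 and 1.2 CPM in MA9 Δ/Δ chemo, MA9 f/f chemo, MA9 Δ/Δ PBS and MA9 f/f PBS. Ifit1 stood at 31.5 CPM in HM chemo and 211 CPM in HM PBS, and at 4.39, 1.56, 6.97 and 1.11 CPM in MA9 Δ/Δ chemo, MA9 f/f chemo, MA9 Δ/Δ PBS and MA9 f/f PBS. Both HM values of these genes lie above every MA9 value, and HM PBS lies well above HM chemo. The log2 ratio of HM PBS over MA9 f/f PBS was 8.12 (7.79 to 8.46, exact 95% interval) for Ifit3, 7.57 for Ifit1, 4.75 for Ifit2 and 6.52 for Ifit1bl2. For Ifit3b (2378 UMIs against 9 UMIs in f/f PBS) it was 10.15 (9.22 to 11.28) and for Ifit1bl1 8.28 (7.23 to 9.60), wide intervals because so few UMIs were seen in the MA9 library. Ifit3 shared 4.24% of the 100-base pieces of its last 500 bases with Ifit3b.

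The ISG15 system tags proteins with a small ubiquitin-like modifier. Isg15 stood at 103 CPM in HM chemo and 910.0 CPM in HM PBS, and at 9.99, 8.58, 12.5 and 8.59 CPM in MA9 Δ/Δ chemo, MA9 f/f chemo, MA9 Δ/Δ PBS and MA9 f/f PBS. Isg15 was 106-fold higher in HM PBS than in f/f PBS, with 13752 UMIs against 558 UMIs, and the 4 MA9 values span a narrow range. Usp18 encodes the protease that removes ISG15 and damps the interferon receptor. Usp18 stood at 12.6 CPM in HM chemo and 110.2 CPM in HM PBS, and at 5.25, 3.99, 9.98 and 3.42 CPM in MA9 Δ/Δ chemo, MA9 f/f chemo, MA9 Δ/Δ PBS and MA9 f/f PBS. Herc6, the ligase that attaches ISG15 in mice, stood at 12.4 CPM in HM chemo, 90.1 CPM in HM PBS, 13.8 CPM in Δ/Δ chemo, 14 CPM in f/f chemo, 21.8 CPM in Δ/Δ PBS and 14.2 CPM in f/f PBS. HM chemo was thus the lowest of the 6 libraries for Herc6 and HM PBS the highest.

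Among the other effectors, Rsad2 stood at 75.2 CPM in HM chemo and 413 CPM in HM PBS, and at 3.51, 2.17, 5.8 and 3.63 CPM in MA9 Δ/Δ chemo, MA9 f/f chemo, MA9 Δ/Δ PBS and MA9 f/f PBS. Rsad2 encodes viperin, which makes a chain-terminating nucleotide, and its neighbour Cmpk2, a mitochondrial nucleotide kinase, stood at 25.6 CPM in HM chemo, 186 CPM in HM PBS and 8.06 to 11.8 CPM in the MA9 libraries. Slfn4 stood at 215 CPM in HM chemo and 1254 CPM in HM PBS, and at 8.24, 13.5, 7.47 and 10.9 CPM in MA9 Δ/Δ chemo, MA9 f/f chemo, MA9 Δ/Δ PBS and MA9 f/f PBS. Slfn4 is a myeloid Schlafen gene. Ifitm3, which blocks viral entry from endosomes, stood at 1653 CPM in HM chemo, 2843 CPM in HM PBS, 318 CPM in Δ/Δ chemo, 347 CPM in f/f chemo, 182 CPM in Δ/Δ PBS and 237 CPM in f/f PBS. Both genes were higher in each HM library than in any MA9 library. Bst2, which tethers budding virus to the cell, was closer between the models, at 167 CPM in HM chemo and 227 CPM in HM PBS, against 95.9, 61.3, 112 and 49.9 CPM in Δ/Δ chemo, f/f chemo, Δ/Δ PBS and f/f PBS. Rtp4, an inhibitor of flavivirus replication, was 76.9-fold higher in HM PBS than in f/f PBS.

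Active members of the oligoadenylate synthetase family make the messenger that activates RNase L, and all 5 listed were higher in HM PBS than in f/f PBS, at log2 ratios of 3.63 (Oas1a) to 6.12 (Oasl1). Oasl2 stood at 59.1 CPM in HM chemo and 192 CPM in HM PBS, and at 7.47, 3.96, 9.33 and 3.46 CPM in MA9 Δ/Δ chemo, MA9 f/f chemo, MA9 Δ/Δ PBS and MA9 f/f PBS. Oasl1 stood at 24.2 CPM in HM chemo and 121 CPM in HM PBS, and at 3.67, 1.62, 6.01 and 1.74 CPM in MA9 Δ/Δ chemo, MA9 f/f chemo, MA9 Δ/Δ PBS and MA9 f/f PBS. Oasl1 and Oasl2 had the larger ratios of the 5. Oas1a shared 40.9% of the 100-base pieces of its last 500 bases with Oas1g, so its count may be split with that gene.

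The sensors of foreign nucleic acid had the lowest median of the 8 roles, at 2.30. The RNA helicase Ddx58 (RIG-I) had a log2 ratio of 3.44 in HM PBS over f/f PBS, Ifih1 (MDA5) 2.26, Dhx58 (LGP2) 2.30 and the Z-nucleic acid sensor Zbp1 4.73. Eif2ak2, the kinase PKR, had the smallest of the 5 at 1.40, with 88.3 CPM in HM PBS against 33.5 CPM in f/f PBS. The transcription factors followed the same direction. Irf7, the factor that amplifies type I interferon, stood at 147 CPM in HM PBS against 13.6 CPM in f/f PBS, and Stat2, the partner of IRF9, stood at 107 CPM in HM PBS against 14.5 CPM in f/f PBS. Irf9 (1.42) and Irf1 (2.00), both transcription factors of the pathway, had smaller log2 ratios. Gbp2, a GTPase that attacks pathogen vacuoles, had a log2 ratio of 6.56 and Gbp7 one of 3.20.

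Cytarabine and doxorubicin in HM leukaemia went with lower levels of most of these genes. Of 36 members compared, 29 were at least 2-fold lower in HM chemo than in HM PBS, against 10.6% of the 5129 genes compared, and 1, Ly6a, was at least 2-fold higher, against 13%. The median log2 ratio of the members was -2.11, against 0.09 over all genes. By role, all 6 Ifit genes, all 5 oligoadenylate synthetases, all 5 sensors and all 3 genes of the ISG15 system were lower. The Ifit family lay lowest, at log2 ratios of -4.72 (Ifit1bl1), -4.15 (Ifit2), -3.94 (Ifit3b), -3.76 (Ifit3), -3.08 (Ifit1bl2) and -2.74 (Ifit1). Ifit2 in HM chemo, at 6.43 CPM, lay next to the MA9 values, at 6.2 CPM in Δ/Δ chemo, 6.1 CPM in f/f chemo, 6.37 CPM in Δ/Δ PBS and 4.26 CPM in f/f PBS.

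The members within 2-fold were Irf1 (-0.36), Bst2 (-0.44), Ifitm3 (-0.78), Rtp4 (-0.88), Ifi35 (-0.96) and Ifi27l2a (0.45). Ifi27l2a stood at 1132 CPM in HM chemo and 830.4 CPM in HM PBS, and at 93.9, 97.3, 129 and 50.8 CPM in MA9 Δ/Δ chemo, MA9 f/f chemo, MA9 Δ/Δ PBS and MA9 f/f PBS. Ifi27l2a, a small mitochondrial membrane protein gene, and Ly6a (Sca-1), a surface marker of stem cells and activated lymphocytes, were the only 2 of the 36 with a positive ratio. Ly6a stood at 61.9 CPM in HM chemo against 29.6 CPM in HM PBS. T-like cells, which carry Ly6a, made up 16.6% of HM chemo and 1.60% of HM PBS, and their part in the Ly6a ratio was not tested. With median-of-ratios scaling Ly6a was under 2-fold. Without the mitochondrial limit 26 members were lower and 2 higher in HM chemo, and with equal weights of neutrophil-like and monocyte-like cells 24 were lower and 1 higher.

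**Figure D2:**
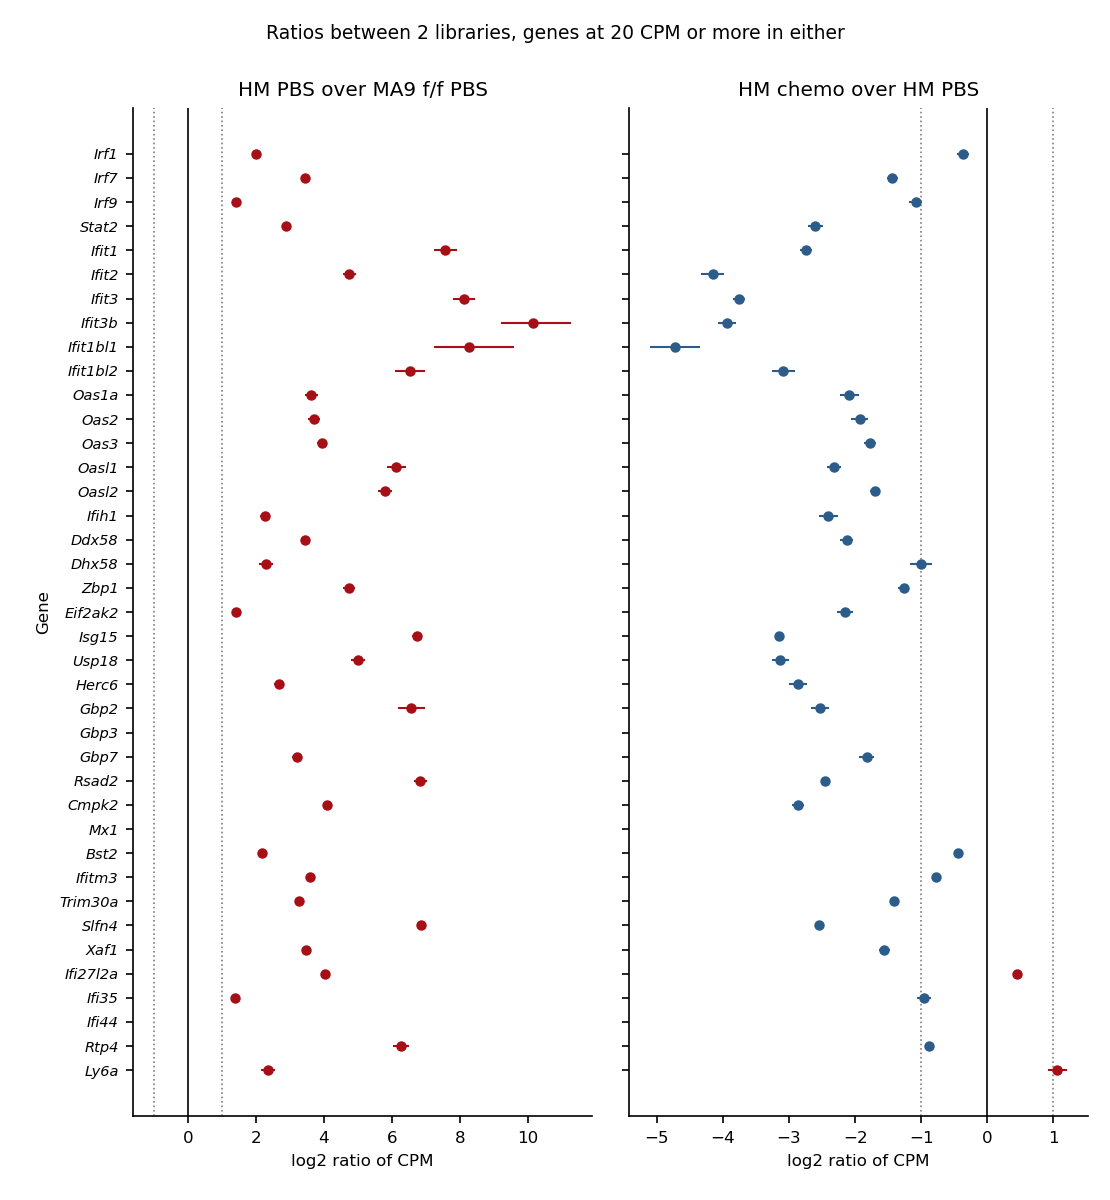
Log2 ratio of CPM for HM PBS over MA9 f/f PBS (left) and for HM chemo over HM PBS (right), 1 point per interferon-induced gene at 20 CPM or more in either library, with exact 95% counting intervals as bars, red above 0 and blue below, and dotted lines at 2-fold. All 36 points lie right of the upper 2-fold line on the left, and 29 lie left of the lower line on the right. The panels share the HM PBS library, on top of the ratio in one and at its base in the other.

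The 2 leukaemias under drug were set side by side after the levels had been seen. HM chemo over MA9 f/f chemo had 24 members compared, of which 21 were at least 2-fold higher, against 7.69% of all genes, and 1, Eif2ak2, was 2-fold lower, against 24.9%. Rtp4 had the largest log2 ratio at 5.36, followed by Rsad2 at 5.11, Ifit1 at 4.33 and Ifit3 at 4.03. Eif2ak2 stood at 19.8 CPM in HM chemo against 41.4 CPM in f/f chemo, and came within 2-fold under median-of-ratios scaling. Irf9 (0.39) and Ifi35 (0.29) were within 2-fold. The 2 drugs' doses and times are not in the labels, so the drug exposure of the leukaemias cannot be matched.

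Within MA9 leukaemia given saline, the Δ/Δ library was set against the f/f library. Of 15 members compared, 7 were at least 2-fold higher in Δ/Δ PBS, against 3.77% of the 6152 genes compared, and none was lower, against 3.87%. The median log2 ratio was 0.97, against 0.15 over all genes. The 7 were Ly6a, Gbp7, Ifi27l2a, Gbp3, Trim30a, Bst2 and Irf7. Ly6a stood at 41.8 CPM in Δ/Δ PBS against 5.83 CPM in f/f PBS (7.16-fold). Ifi27l2a stood at 129 CPM in Δ/Δ PBS against 50.8 CPM in f/f PBS. Trim30a, a TRIM-family regulator of inflammatory signalling, stood at 68.3 CPM in Δ/Δ PBS against 29.8 CPM in f/f PBS. Of the 7, Ly6a, Gbp3, Gbp7 and Bst2 were higher in stem and progenitor-like and in T-like cells than in neutrophil-like cells by the edgeR tests between classes. Irf7, Ifi27l2a and Trim30a were called in neither of these tests, which include both libraries of this pair. Ifitm3 ran the other way, at 182 CPM in Δ/Δ PBS against 237 CPM in f/f PBS, a log2 ratio of -0.38.

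The cell mix moved with this pair. Neutrophil-like cells, which carry little Ly6a and Gbp3, were 5.47% of Δ/Δ PBS against 45.7% of f/f PBS. Stem and progenitor-like cells were 22.8% of Δ/Δ PBS against 4.42% of f/f PBS, T-like cells 3.96% of Δ/Δ PBS against 0.731% of f/f PBS and B-like cells 4.60% of Δ/Δ PBS against 0.546% of f/f PBS. When the 5 classes with enough cells were given equal weight in both libraries, 0 members were 2-fold higher. Inside single classes some members were, as given below, and the part of the cell mix in the library ratios was not tested. The strongly induced core genes were scarce in both libraries, for example Ifit3 at 5.07 CPM in Δ/Δ PBS against 1.2 CPM in f/f PBS and Rsad2 at 5.8 CPM in Δ/Δ PBS against 3.63 CPM in f/f PBS.

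Under drug, Δ/Δ chemo over f/f chemo had 11 members compared, of which 3 (Ly6a, Gbp3 and Gbp7) were at least 2-fold higher, against 5.55% of all genes, and none lower, against 4.73%. Gbp3 stood at 26.9 CPM in Δ/Δ chemo against 10.5 CPM in f/f chemo, and Gbp7 at 26.7 CPM in Δ/Δ chemo against 11.4 CPM in f/f chemo. Ly6a stood at 27.7 CPM in Δ/Δ chemo against 4.49 CPM in f/f chemo. The median of the 11 was 0.22, and with equal weights of 3 classes no member was 2-fold higher and the median was -0.0109. Neutrophil-like cells again differed, at 5.26% of Δ/Δ chemo against 42.3% of f/f chemo. The pairs of Δ/Δ over f/f and of chemo over PBS share libraries and are not independent of each other.

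No member at 20 CPM or more differed by 2-fold between drug and saline in MA9 leukaemia at library level. In f/f chemo over f/f PBS 0 of 8 members compared were 2-fold higher, against 0.363% of all genes, and 0 were lower, against 0.951%. The largest of the 8 log2 ratios was 0.94 for Ifi27l2a, at 97.3 CPM in f/f chemo against 50.8 CPM in f/f PBS. In Δ/Δ chemo over Δ/Δ PBS 0 of 15 were higher, against 0.797%, and 0 were lower, against 1.53%. Their median log2 ratio was -0.47, with Irf1 lowest at -0.81 and Ifitm3 highest at 0.80, and the median was 0.0335 with equal weights of 7 classes. The HM ratio was not tested against the MA9 ratios.

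The same pairs were read inside the gated classes, which sets the cell mix aside as far as the gates do. In neutrophil-like cells, all 35 members compared were at least 2-fold higher in HM PBS than in f/f PBS, against 10.3% of all genes there, with a median log2 ratio of 4.70. Mature cells, set apart by stage below, were 1070 of 2322 neutrophil-like cells in HM PBS and 158 of 3937 in f/f PBS. Most members compared were higher in mature cells than in precursors, and the part of this stage mix was not tested. In monocyte-like cells, gated on markers such as Csf1r, Fn1 and Ccr2, 32 of 34 were higher, against 7.89%, with a median of 2.30. Isg15 stood at 192 CPM in HM chemo and 1001 CPM in HM PBS neutrophil-like cells, against 9.47, 4.6, 19.4 and 6.95 CPM in those of Δ/Δ chemo, f/f chemo, Δ/Δ PBS and f/f PBS. In monocyte-like cells it stood at 61.7 CPM in HM chemo and 552 CPM in HM PBS, against 10.2, 17.6, 11.7 and 16.4 CPM in the MA9 libraries in the same order. Both HM values lie above all 4 MA9 values in each class. For HM chemo over f/f chemo, 24 of 26 members were higher in neutrophil-like cells, against 11.3%, and 14 of 23 in monocyte-like cells, against 6.19%. Mature cells were 846 of 2219 neutrophil-like cells in HM chemo and 72 of 4123 in f/f chemo.

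The lower levels in HM chemo were seen inside both classes. In neutrophil-like cells 23 of 35 members were at least 2-fold lower than in HM PBS, against 11.7% of all genes, and 1, Ifi27l2a, was higher, against 5.05%. In monocyte-like cells 20 of 35 were lower, against 7.17%, and 2, Ifi27l2a and Ly6a, were higher, against 4.61%. Ifit3 stood at 47 CPM in HM chemo against 400.2 CPM in HM PBS neutrophil-like cells, and at 14.2 CPM in HM chemo against 77.3 CPM in HM PBS monocyte-like cells. Ifi27l2a stood at 1717 CPM in HM chemo against 836 CPM in HM PBS neutrophil-like cells, and at 1855 CPM in HM chemo against 904 CPM in HM PBS monocyte-like cells. Ifitm3 differed little in neutrophil-like cells, at 2836 CPM in HM chemo against 3085 CPM in HM PBS.

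HM PBS held 44 T-like cells, under the 50 set as the least for a ratio, so their levels are given alone. Isg15 stood at 66.8 CPM in HM chemo T-like cells and 1215 CPM (1044 to 1406, exact 95% Poisson interval) in HM PBS T-like cells, against 45.3, 40.2, 9.86 and 9.25 CPM in those of Δ/Δ chemo, f/f chemo, Δ/Δ PBS and f/f PBS. Bst2 stood at 240.1 CPM in HM chemo and 1006 CPM in HM PBS T-like cells, and Ly6a at 164 CPM in HM chemo and 993 CPM in HM PBS ones. Free RNA can carry neutrophil transcripts into other droplets. The 13 neutrophil markers stood in T-like cells at 5.28% of their neutrophil-like level in HM chemo and 3.16% in HM PBS. Isg15 in T-like cells, in contrast, stood at 34.9% of its neutrophil-like level in HM chemo and at 121% in HM PBS. Slfn4 was nearer to the free RNA level, at 5.86% in HM chemo and 7.85% in HM PBS. Ifi44, a cytoplasmic interferon-induced gene of unclear role, was under 20 CPM in every library but stood at 122 CPM in HM PBS T-like cells against 0.526 CPM in HM PBS neutrophil-like cells.

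**Figure D3:**
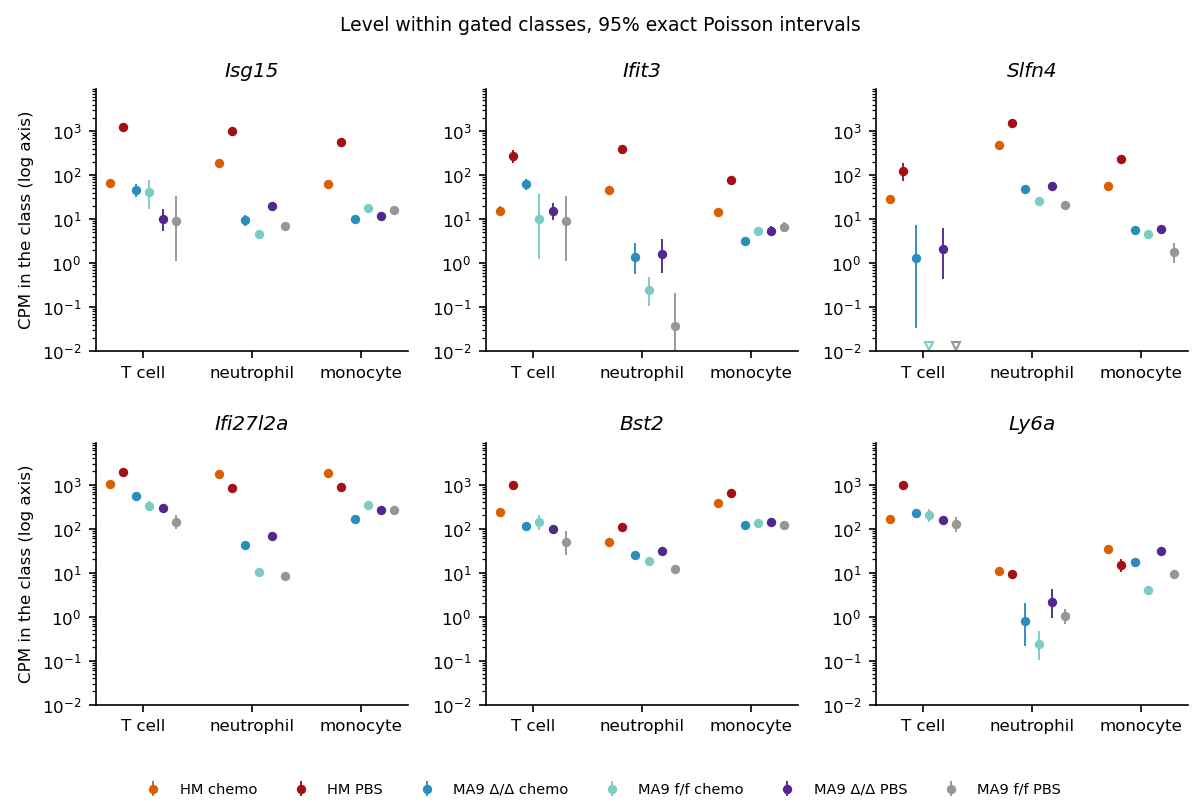
Level of 6 interferon-induced genes in T-like, neutrophil-like and monocyte-like cells of each library, in CPM of the class on a log axis, with exact 95% Poisson intervals as bars and open triangles at the foot where no UMI was seen. HM PBS (dark red) is highest for Isg15, Ifit3, Slfn4 and Bst2 in all 3 classes, while HM chemo (orange) is highest for Ifi27l2a in neutrophil-like and monocyte-like cells.

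Inside MA9 classes the differences were smaller. In neutrophil-like cells of Δ/Δ PBS over f/f PBS, 8 of 12 members were at least 2-fold higher, against 1.82% of all genes, and none lower, against 1.17%. The 8 were Irf7, Oas3, Ifi27l2a, Ddx58, Bst2, Ifitm3, Trim30a and Slfn4. Ifitm3 stood at 786 CPM in Δ/Δ PBS against 248 CPM in f/f PBS neutrophil-like cells, the opposite direction to the whole library. Mature cells, set by Cxcr2, Il1r2 and Mmp9 against Camp, Ngp and Ltf, were 153 of 516 neutrophil-like cells in Δ/Δ PBS and 158 of 3937 in f/f PBS. Most members compared were higher in mature cells than in precursors. Bst2 in f/f PBS was not, at 6.84 CPM in mature cells against 13.3 CPM in precursors. The part of that stage mix was not tested. In monocyte-like cells 2 of 16 (Gbp7 and Ly6a) were higher, against 2.74%, and 0 lower, against 3.74%. In stem and progenitor-like cells 2 of 14 (Irf7 and Ifi27l2a) were higher, against 0.772%, and 0 lower, against 1.59%. In primary granule cells (Mpo, Elane and Prtn3 among the markers) 2 of 8 (Ifitm3 and Trim30a) were higher, against 1.07%, and 0 lower, against 1.40%. In T-like cells 7 of 23 were higher, against 10.9%, and 0 lower, against 6.08%, with 373 cells in Δ/Δ PBS and 63 in f/f PBS. Under drug, 3 of 9 members (Ifi27l2a, Ifitm3 and Trim30a) were higher in Δ/Δ chemo neutrophil-like cells than in f/f chemo ones, against 2.65%. In monocyte-like cells of that pair Gbp7 was higher and Ifitm3 lower, of 15 members, against 4.73% and 5.79% of all genes. In primary granule cells Ifitm3 and Trim30a were again the 2 higher members, of 7, against 3.22%, and 0 were lower, against 4.61%.

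For drug against saline in Δ/Δ leukaemia, some members were higher in T-like and macrophage-like cells. In T-like cells 5 of 25 members (Ifit1, Ifit2, Ifit3, Isg15 and Usp18) were at least 2-fold higher in Δ/Δ chemo than in Δ/Δ PBS, against 1.65% of all genes, and none lower, against 2.06%. All 5 belong to the 8 core members scored per cell below. At full depth, at least 4 of the 8 were found in 9 of 212 T-like cells of Δ/Δ chemo. In Δ/Δ PBS they were found in 4 of 373. The 5 ratios can thus rest on the same few cells and are not separate results. Ifit3 stood there at 61.2 CPM in Δ/Δ chemo against 15.5 CPM in Δ/Δ PBS, and Isg15 at 45.3 CPM in Δ/Δ chemo (212 cells) against 9.86 CPM in Δ/Δ PBS (373 cells). In macrophage-like cells, gated on C1qa, C1qb, C1qc, Mrc1 and Cd5l, 8 of 28 were higher, against 3.31%, and none lower, against 3.67%. Ifit3, Isg15, Usp18 and Oasl2 among them are core members. At full depth, at least 4 core members were found in 10 of 133 macrophage-like cells of Δ/Δ chemo and 7 of 182 of Δ/Δ PBS. These ratios can thus also rest in part on the same few cells and are not separate results. Oasl2 stood there at 68 CPM in Δ/Δ chemo against 21.4 CPM in Δ/Δ PBS and Ifi27l2a at 611 CPM in Δ/Δ chemo (133 cells) against 229 CPM in Δ/Δ PBS (182 cells). In monocyte-like cells of the same pair 0 of 15 were higher, against 0.737%, and 0 lower, against 0.653%. In neutrophil-like cells 0 of 12 were higher, against 1.5%, and 1, Irf7, lower, against 2.90%. In stem and progenitor-like cells Ifitm3 and Ly6a were higher, against 1.41%, and Irf7 and Ifi27l2a lower, against 1.49%, of 15 members. In primary granule cells Ifitm3 was the 1 higher member of 8, against 1.03%, and 0 were lower, against 0.892%. In B-like cells 0 of 14 were higher, against 6.16%, and 1, Ly6a, lower, against 0.936%.

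In f/f chemo over f/f PBS no member at 20 CPM or more differed by 2-fold in any of the 3 classes with enough cells. In neutrophil-like cells 0 of 5 were higher, against 0.393%, and 0 lower, against 1.20%. In monocyte-like cells 0 of 14 were higher, against 0.434%, and 0 lower, against 1.07%. In primary granule cells 0 of 4 were higher, against 0.380%, and 0 lower, against 0.777%. Isg15 stood at 17.6 CPM in f/f chemo against 16.4 CPM in f/f PBS monocyte-like cells, under 20 CPM in both and so outside that count.

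Neutrophil-like cells were split by 6 of their markers into precursors (no UMI of Cxcr2, Il1r2 or Mmp9, and Camp, Ngp and Ltf at 1% of UMIs or more), intermediates and mature cells (at least 2 UMIs of the first 3, and the others under 1%). The split was chosen after values had been seen and is a description. Summed over the 38 genes, the level in HM chemo was 2038, 5881 and 10688 CPM in precursors, intermediates and mature cells, and in HM PBS 2677, 8123 and 19284 CPM. In Δ/Δ chemo it was 1338, 1888 and 5060 CPM, in f/f chemo 309, 1094 and 3066 CPM, in Δ/Δ PBS 529.9, 1714 and 3501 CPM and in f/f PBS 286, 823 and 1630 CPM. Within each library the sum was higher at each later stage, and within each stage HM PBS was highest and HM chemo next. Between mature cells and precursors of HM chemo, 28 of 35 members compared were at least 2-fold higher in mature cells, against 22.7% of all genes there, and in HM PBS 33 of 36, against 18.3%. In Δ/Δ chemo 25 of 28 were higher, against 19.6%, in f/f chemo 16 of 18, against 14.6%, in Δ/Δ PBS 16 of 21, against 18.5%, and in f/f PBS 11 of 12, against 18.5%. Among members at 20 CPM or more in mature cells or precursors, only Herc6 in Δ/Δ PBS was at least 2-fold lower in mature cells. Members under that level were not counted, among them Herc6 in f/f PBS, at 2.28 CPM in mature cells against 19.7 CPM in precursors.

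Isg15 stood at 35.6, 132 and 396 CPM in precursors, intermediates and mature cells of HM chemo, and at 119, 651 and 1913 CPM in those of HM PBS. Rsad2 stood at 4.45, 117 and 335 CPM in HM chemo and at 25.8, 293 and 1035 CPM in HM PBS. Precursors numbered 31 in HM chemo and 206 in HM PBS, and mature cells 846 in HM chemo and 1070 in HM PBS, so the precursor values of HM chemo rest on few cells. Eif2ak2 was flatter, at 68.4, 82.5 and 112 CPM in HM PBS.

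**Figure D4:**
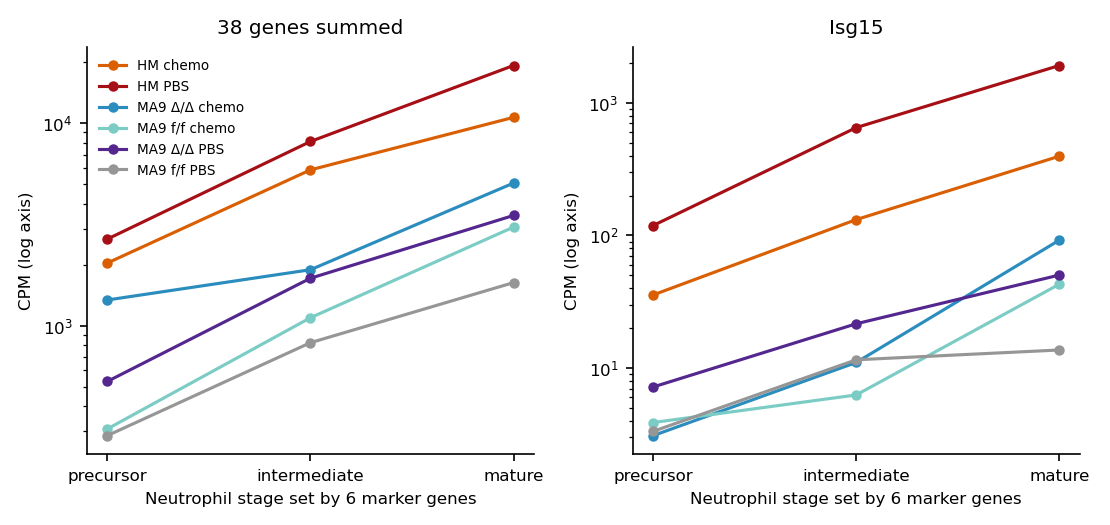
Summed level of 38 interferon-induced genes (left) and level of Isg15 (right) in 3 stages of neutrophil-like cells set by 6 marker genes, in CPM on a log axis, 1 line per library. The summed lines climb from precursor to mature cells in every library, and the 2 HM lines lie above the 4 MA9 lines at each stage.

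Differences between cell classes could be tested, because each library holds several classes and serves as a replicate. UMIs were summed per class and library and fitted with edgeR's quasi-likelihood test with library as a block, with Benjamini-Hochberg adjustment over all genes tested and a threshold of 0.05. The libraries are of different leukaemias and treatments, so the tests ask what is shared across them. Nothing in the labels says whether cells of 1 or several mice were in a library.

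Between neutrophil-like and monocyte-like cells in 6 libraries, 5 of 36 members were higher in neutrophil-like cells, against 20.8% of all 10958 genes tested, and 4 were lower, against 21.6%. Both shares of members lay under those of all genes. Slfn4 had a log2 fold change of 3.60 ± 0.20 (SE) with an adjusted p of 1.11e-05 (edgeR), higher in 6 of 6 libraries. Ifit1bl2, Ddx58, Oas2 and Cmpk2 were the other higher members, at 1.92 ± 0.24 (SE) for Ddx58 with an adjusted p of 0.000435 (edgeR). The CPM of Oas2 was higher in neutrophil-like cells in 4 of 6 libraries, and that of Ifit1bl2, Ddx58 and Cmpk2 in 6 of 6. Bst2 was lower at -2.14 ± 0.21 (SE), Gbp3 at -3.98 ± 0.55 (SE), Ly6a at -2.20 ± 0.60 (SE) and Ifi35 at -0.54 ± 0.15 (SE). Gbp3 stood at 1.13, 9.38, 1.01, 0.639, 1.37 and 0.478 CPM in neutrophil-like cells of HM chemo, HM PBS, Δ/Δ chemo, f/f chemo, Δ/Δ PBS and f/f PBS, against 27.2, 44.4, 39.2, 26.4, 35.6 and 22 CPM in monocyte-like cells in the same order. The ranges of Gbp3 in the classes do not overlap. Without Δ/Δ PBS 2 members were lower. Members with large spread over libraries, such as Isg15 (0.58, SE 0.58), did not pass.

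Stem and progenitor-like cells (Cd34, Kit, Flt3 and other markers) could be set against the others in 3 MA9 libraries. Against monocyte-like cells 0 of 34 members were higher, against 2.93% of genes tested, and 2 were lower by edgeR, near the 5.64% of all genes. Of the 34, 11 had an unadjusted p under 0.05 (edgeR). DESeq2 gave 0 higher and 4 lower, and edgeR without a filter on low counts 0 higher and 10 lower. The 2 were Ifitm3 (-2.74, SE 0.48) and Ifi27l2a (-2.58, SE 0.45), lower in 3 of 3 libraries each. Without f/f PBS 2 were higher and 5 lower, and without Δ/Δ PBS 6 were lower. Against neutrophil-like cells 9 of 32 were higher, against 23.8%, and 7 lower, against 25.9%, shares near those of all genes. Gbp3 was highest of the 9 at 4.63 ± 0.26 (SE) with an adjusted p of 2.35e-05 (edgeR), followed by Ly6a (2.72, SE 0.57), Oasl1 (2.00, SE 0.54) and Bst2 (1.87, SE 0.17). Slfn4 (-4.73, SE 0.28), Ifitm3 (-3.46, SE 0.34) and Oas2 (-2.11, SE 0.23) were lowest. Cmpk2 was called lower while its CPM was higher in stem and progenitor-like cells in 1 of the 3 libraries.

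T-like against neutrophil-like cells, in HM chemo and 3 MA9 libraries, gave 7 of 35 members higher, against 13.9%, and 3 lower, against 14.9%. Ly6a was higher at 5.69 ± 0.76 (SE), Gbp3 at 4.30 ± 0.40 (SE), Gbp2 at 3.42 ± 1.01 (SE), Gbp7 at 2.59 ± 0.76 (SE) and Irf1 at 1.37 ± 0.34 (SE). All 3 guanylate binding protein genes were thus among the 7, but only Gbp3 of them stayed called with each library left out in turn. Ly6a, Gbp3 and Bst2 were called in 4 of 4 such fits, and Gbp2, Gbp7, Irf1 and Ifit1bl1 in 1 of 4 each. Slfn4, Ifitm3 and Oas2 were the 3 lower members. The count rests on which libraries enter, since 19 members were higher without HM chemo and 3 without any 1 of Δ/Δ chemo, Δ/Δ PBS or f/f PBS. B-like over T-like cells in 3 libraries gave 2 of 31 higher (Ly6a and Ifitm3), near the 7.62% of all genes, and 9 lower, against 8.46%. Gbp2 was lowest of the 9 at -3.21 ± 0.41 (SE), followed by Ifit1 at -2.88 ± 0.54 (SE). Without Δ/Δ chemo 3 were lower, and without either Δ/Δ chemo or Δ/Δ PBS 1 was higher.

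Whether the neutrophil-like over monocyte-like difference itself differs between HM (2 libraries) and MA9 (4 libraries) was tested with an interaction term added after the levels had been seen. For 26 of 36 members the log2 ratio of neutrophil-like over monocyte-like cells was higher in HM, against 20.7% of all genes, and for 0 it was lower, against 19.3% (edgeR). A higher signed ratio is not always a larger gap between the classes, since Ly6a stood at -0.31 in HM and -3.36 in MA9. At an unadjusted p under 0.05 the ratio was higher in HM for 30 members and lower for 0, and with DESeq2's size factors in the same fit for 27 and 0. Ifit3 led, with a log2 ratio of 3.05 in HM and -3.47 in MA9, 6.52 apart, with an adjusted p of 0.00192 (edgeR interaction). Slfn4 did not pass, at 3.90 in HM and 3.41 in MA9 with an adjusted p of 0.233 (edgeR interaction). Without HM PBS the count was 13. Mature cells were 846 of 2219 and 1070 of 2322 neutrophil-like cells in HM chemo and HM PBS, against 49 of 497, 72 of 4123, 153 of 516 and 158 of 3937 in Δ/Δ chemo, f/f chemo, Δ/Δ PBS and f/f PBS, and the part of this stage mix was not tested.

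Single cells show how the genes were spread. Each cell was thinned to 2000 UMIs and scored for 8 core members (Isg15, Ifit1, Ifit2, Ifit3, Rsad2, Usp18, Oasl2 and Cmpk2). At least 4 of the 8 were found in 177 of 4294 cells (4.12%, 3.55% to 4.76%, exact binomial interval) in HM chemo and 749 of 2389 (31.4%, 29.5% to 33.3%) in HM PBS. The MA9 shares lay between 0.170% (15 of 8839 cells, f/f chemo) and 0.513% (40 of 7804 cells, Δ/Δ PBS). Before thinning the shares were 17.3% in HM chemo, 49.2% in HM PBS and 0.383% to 1.71% in MA9. Thinning left out 382 and 366 shallower cells in HM chemo and HM PBS, and 664 to 1627 in the MA9 libraries.

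By class, the share with at least 4 core genes was 6.39% of neutrophil-like cells in HM chemo and 34.3% in HM PBS. It was 0.361% (1 of 277) of monocyte-like cells in HM chemo and 11% (20 of 182) in HM PBS, and 0.703% (5 of 711) of T-like cells in HM chemo and 17.2% (5 of 29) in HM PBS. In HM PBS neutrophil-like cells Isg15 was seen in 59.7% and Ifit3 in 35.9%, and both in 31.9%, where the product of the 2 shares is 21.4%. Rsad2 and Cmpk2 were seen together in 21.1%, where the product is 13.9%. In HM chemo neutrophil-like cells Isg15 and Ifit3 were seen together in 5.73%, where the product is 2.63%. In f/f neutrophil-like cells too few held Ifit3 for a joint count, since Isg15 was seen in 1.12% and Ifit3 in 0 of 3650 cells of f/f chemo, and Isg15 in 1.71% and Ifit3 in 0.0267% of 3739 cells of f/f PBS.

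**Figure D5:**
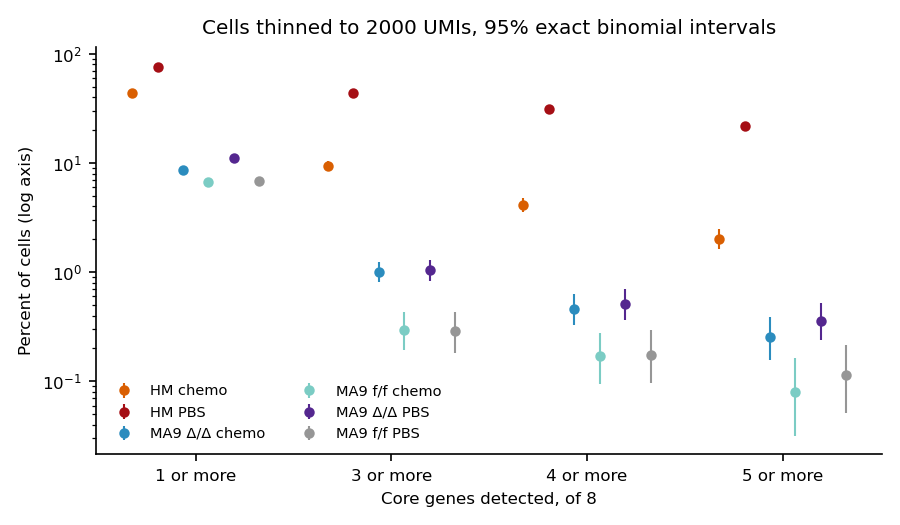
Percent of cells, each thinned to 2000 UMIs, with at least 1, 3, 4 or 5 of 8 core interferon-induced genes, on a log axis, 1 point per library with exact 95% binomial intervals. HM PBS is highest at every cut, with 31.4% at 4 or more, HM chemo is next with 4.12%, and the 4 MA9 libraries lie under 1% there.

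The genes that make and carry the interferon signal differed less in the pairs below than the induced genes did. No UMI of Ifnb1, Ifna1, Ifna2, Ifna4, Ifnl2 or Ifnl3 was seen in any library, which allows at most 0.029 to 0.199 CPM. Ifng stood at 3.02 CPM in HM chemo, 1.52 CPM in HM PBS and 0.22 to 1.12 CPM in the MA9 libraries, and was seen mostly in T-like cells, at 20.1 CPM in HM chemo and 87.8 CPM in HM PBS. Of a 44-gene list of ligands, receptors, kinases, inducers and brakes, 28 were compared in HM PBS over f/f PBS. Of these 5 were 2-fold higher, among them the signalling brakes Socs1 and Socs3 and the RNA editing gene Adar, and 4 lower (Ifngr1, Il10rb, Tmem173 and Ptpn2), against 8.92% and 30.7% of all genes, with a median log2 ratio of -0.43 beside -0.62 over all genes. The receptor genes Ifnar1 and Ifnar2 were within 2-fold in this pair. In HM chemo over HM PBS 4 of 26 genes of that list were lower, among them Irf2 and Adar, against 10.6% of all genes, and 0 higher, against 13%.

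A second list of 56 interferon-induced genes, none of them on the first, was read in the same way, with 55 of them measured. In HM PBS over f/f PBS 28 of 41 were at least 2-fold higher, against 8.92% of all genes, and 0 lower, against 30.7%, with a median log2 ratio of 1.64. The 28 include the GTPase genes Irgm1, Igtp and Ifi47, the ADP-ribosyl transferases Parp9, Parp12 and Parp14, the chemokine Cxcl10 and 4 Schlafen genes beside Slfn4. In HM chemo over HM PBS 23 of 41 were lower, against 10.6%, and 2 (Lgals3bp and Ccl5) higher, against 13%, with a median of -1.20. In Δ/Δ PBS over f/f PBS 10 of 29 were higher, against 3.77%, and 1 (Ifitm6) lower, against 3.87%. In Δ/Δ chemo over f/f chemo 2 of 28 were higher, against 5.55%, and 2 lower, against 4.73%, shares near those of all genes. Both lists were chosen with results of these libraries known, so the second list is a further description and not independent evidence.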

How the data were processed

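Single-cell RNA-seq (Chromium Single Cell v2 kit, per the labels) measured 3′ ends of messenger RNA in 6 bone marrow libraries. The files deposited by the authors hold UMI counts per gene and barcode, not normalized, made with Cell Ranger 3.0.2 on mm10 per the submitters' processing notes. The MA9 matrix headers name that version and the HM headers name no software. Kept cells had at least 500 genes and at most 10% mitochondrial UMIs. The members and lists were chosen with earlier results of these data known. Cells were gated by markers that hold no member: at least 2 of 6 T, 6 B or 5 macrophage markers, at least 3 of 8 monocyte or 7 progenitor markers, or 2% of UMIs from 13 neutrophil or 5 primary granule markers (Mpo, Elane, Prtn3, Ctsg, Ms4a3). Cells that met certain pairs of gates, such as T and B or neutrophil and monocyte, were left out of all, which removes some doublets. Other pairs were not excluded. Monocyte markers were not limited in macrophage-like cells, nor progenitor markers in T-like, B-like or macrophage-like cells. The primary granule share was not limited in the other classes. Scrublet's top 6% were left out as an alternative. CPM scales UMIs to a common total per library or class.

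Libraries were compared by ratio with exact 95% intervals and a 2-fold rule at 20 CPM or more in either library, and classes of at least 50 cells with edgeR. Intervals and zero limits (3 counts) cover counting error only. Where nothing says that libraries came from separate mice, p-values measure the spread between libraries. The text names members at 20 CPM or more that hold the 4 highest or 4 lowest ratios of a comparison or lead their role, and genes of the pathway and second lists. Alternatives were other scaling, CPM minimum, mitochondrial limit, class weights, gates, DESeq2, no filter, no block and each library left out. On simulated counts of 11254 genes the edgeR step for neutrophil over monocyte recovered 100% of 4-fold and 88.9% of 2-fold changes, and for progenitor over monocyte, on 11403 genes, 100% and 45.7%. The simulation gave every gene the same spread and a library effect shared by both classes. Class differences that vary more between libraries, as for Ifit3 in neutrophil over monocyte (SE 1.41), were not simulated. Recovery for such members is thus not known. Sequences came from RefSeq on GRCm38.p6, the same assembly as mm10 in its primary chromosomes. Tools were Python 3.11.15, numpy 2.4.6, scipy 1.17.1, pandas 2.3.3, scanpy 1.11.5, matplotlib 3.10.9, Biopython 1.88, R 4.3.3, edgeR 4.0.16 and DESeq2 1.42.0.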

Additional observations from a re-analysis of the deposited data

Results flagged for a closer look

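The log2 ratio of neutrophil-like over monocyte-like cells was higher in HM than in MA9 for 26 of 36 members by the edgeR interaction test, and every sample of this contrast is 1 class of 1 library. Ifit3 had the largest shift, HM minus MA9, at 6.52 on the log2 scale, followed by Ifit3b at 5.92, Ifit1 at 4.87 and Oasl1 at 4.74. The shift was put here because the HM and MA9 libraries differ by that test, which was added after the levels had been seen. The model, any difference in processing and the stage mix of neutrophil-like cells cannot be told apart in it.

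Isg15 was also seen in barcodes of HM PBS that the mitochondrial limit left out and that enter only the counts given with a looser limit or none. Scaled as CPM but over UMIs outside the mitochondrial genes, it stood at 321 in the 4503 barcodes with over 10% to 20% mitochondrial UMIs and at 114 in the 4813 barcodes over 20%, beside 931 in the kept cells of that library. In the kept cells of MA9 f/f PBS the same quantity was 8.84.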

How the results depend on the processing

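No paired analysis was possible because each group holds 1 library and the labels give no replicate number that 2 groups share. Between classes the library was a block in the edgeR fit. Without the block, 1 member was higher and 1 lower in neutrophil-like over monocyte-like cells, 0 were lower in stem and progenitor-like over monocyte-like cells, 4 were higher in stem and progenitor-like and 4 in T-like over neutrophil-like cells, and 1 was higher and 4 lower in B-like over T-like cells. In stem and progenitor-like over monocyte-like cells 4 were lower by DESeq2 and 10 without a filter on low counts, and in B-like over T-like cells 17 were lower without a filter. With each library left out in turn, neutrophil-like over monocyte-like cells had 4 to 7 members higher and 2 to 4 lower, stem and progenitor-like over monocyte-like 0 to 2 higher and 3 to 6 lower, stem and progenitor-like over neutrophil-like 6 to 7 higher and 7 to 8 lower, T-like over neutrophil-like 3 to 19 higher and 3 to 4 lower, and B-like over T-like 1 to 2 higher and 3 to 13 lower. The interaction then gave 13 to 29 members. Left-out fits of the 3-library contrasts rest on 2 libraries.

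Counts of members past 2-fold moved most with the CPM minimum and the class weights. In Δ/Δ PBS over f/f PBS they were 14 higher at a 5 CPM minimum, 18 higher and 1 lower with no minimum, and 0 higher with equal class weights. In Δ/Δ chemo over f/f chemo they were 8 higher and 1 lower with no minimum and 0 higher with equal weights, where the median turned to -0.0109. In f/f chemo over f/f PBS they were 2 higher and 2 lower with no minimum. In Δ/Δ chemo over Δ/Δ PBS they were 1 lower at 5 CPM and 3 lower with no minimum, and the median turned to 0.0335 with equal weights. In HM chemo over HM PBS 0 were higher with median-of-ratios scaling and 2 without a mitochondrial limit, and 24 to 30 were lower over all alternatives. In HM chemo over f/f chemo 0 were lower with median-of-ratios scaling and with equal weights. In HM PBS over f/f PBS 35 to 37 were higher over all alternatives. The cause of these shifts was not tested, apart from the genes that a lower minimum adds.

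The share of thinned cells with several core genes follows its settings by construction. With 3 genes, 5 genes, 1000 UMIs and 3000 UMIs it was 9.43%, 2.03%, 1.36% and 6.79% in HM chemo, 43.9%, 21.7%, 19.1% and 38.8% in HM PBS, 0.294%, 0.0792%, 0.0842% and 0.282% in f/f chemo, and 1.05%, 0.359%, 0.296% and 0.824% in Δ/Δ PBS. The 1 library per group and the 44 T-like cells of HM PBS limit what can be tested.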
